A study of Mus musculus with 6 samples.

Results

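The 50 genes of DNA replication and mitosis described here were chosen by symbol from a list of such genes, and all 50 were found among the 15483 genes that the 6 expression tables list. They fall into 16 S phase genes (Mcm2 to Mcm7, Pcna, Tyms, Rrm1, Rrm2, Tk1, E2f1, E2f8, Ccne1, Ccne2 and Cdc6) and 34 others, called mitotic here, although Cdk2, Cks1b and Stmn1 among them act outside mitosis too. The libraries came from regulatory T cells (Tregs) of mouse bone marrow, gated on CD3, CD4, Foxp3 and the absence of NK1.1. There were 3 libraries from irradiated mice, taken 3 months after irradiation, and 3 libraries from control mice. All mice were wild type, and the labels used here give no age, sex, radiation dose or pooling of animals. Whether each replicate was a separate animal is not stated either, and the p-values below therefore reflect variation among these libraries, part of which may be technical.

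DNA replication is licensed in G1, when the Mcm2 to Mcm7 helicase is loaded on origins with the help of Cdc6, and starts when Cdk2 with E and A cyclins fires these origins. Entry into mitosis is driven by Cdk1 with B cyclins and by the Polo and Aurora kinases, and exit by the anaphase-promoting complex (APC/C), a ubiquitin ligase. E2F factors switch on the replication genes before S phase, whereas the mitotic genes are held down in resting cells by the DREAM complex at a promoter element named CHR and switched on later by B-Myb and Foxm1. In bone marrow such transcripts come from many dividing cells, among them the precursors of neutrophils, erythrocytes and B cells, and also from dividing T cells.

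Values were taken as FPKM, which the table headers do not name (fragments counted per kilobase of a transcript and corrected for library size), so that levels can be set side by side between genes. The column totals were 480854 to 485365 FPKM in irradiated libraries and 451444 to 470375 FPKM in control libraries. Absolute depth is unknown, but low values gave relative depths of 81.65% to 92.7% in irradiated libraries and 98.55% to 102.95% in control libraries, with control replicate 1 set to 100%. Libraries of the same group correlated across genes at a Pearson's r of 0.989 to 0.992 on log2(FPKM + 1), and libraries of different groups at 0.974 to 0.978. Granulocyte transcripts were the most abundant in all 6 libraries, S100a8 averaging 39026 ± 427 FPKM in irradiated libraries and 25283 ± 1249 FPKM in control libraries (SD, n = 3 each). The Treg factor Foxp3 averaged 12.6 ± 0.795 FPKM in irradiated libraries and 22.6 ± 1.93 FPKM in control libraries. These are bulk samples, in which fewer cells of a type and less RNA per cell cannot be told apart, and which cells the replication and mitosis transcripts came from was not tested.

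All 50 genes were expressed well above the 1 FPKM set as the minimum mean for testing. Their mean control level ran from 6.14 FPKM for Cdc25c to 271.8 FPKM for Stmn1, with a median of 45.1 FPKM, against 11.6 FPKM over all tested genes. Mki67, the proliferation antigen that coats mitotic chromosomes, had 139.0, 135.3 and 131.7 FPKM in the 3 irradiated libraries and 125.0, 124.0 and 121.9 FPKM in the 3 control libraries. All 3 irradiated values lay above the control values, and its level in FPKM was above that of Foxp3 and of Cd3e (25.0 ± 1.42 FPKM in irradiated and 39.5 ± 2.93 FPKM in control libraries) in both groups. The change of Mki67 did not pass the test (log2 change 0.13 ± 0.05 SE, limma adjusted p = 0.0939). Top2a, the topoisomerase that untangles sister chromatids, had 140.1, 131.9 and 134.0 FPKM in irradiated and 135.6, 133.8 and 139.4 FPKM in control libraries, and these ranges overlapped (log2 change -0.01 ± 0.05). The spread within groups was small, with a median coefficient of variation over the 50 genes of 5.12% in irradiated and 4.6% in control libraries.

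Irradiated libraries were compared with control libraries of the same sort, 3 months after exposure. Rrm2 and E2f8 of the S phase genes rose, as did Cdk2, Ccnb1 and Cks1b, the kinase and phosphatase genes Aurka, Plk1 and Cdc25c, the ubiquitin pathway genes Cdca3 and Ube2c and the motor gene Kif11. Meanwhile 0 of the 6 Mcm helicase genes passed the test, and neither did Pcna. These counts are too small to be set apart from the shares over all tested genes (6.29% higher and 10.3% lower). On log2(FPKM + 1), with limma's two-sided test and Benjamini-Hochberg adjustment over the 10666 genes that averaged 1 FPKM or more, all 50 were tested and 11 rose, against 6.29% higher over all tested genes. None fell (0 of 50 by limma), against 10.3% lower over all tested genes. At an unadjusted limma p under 0.05, 2 of the 50 were lower, against 1864 of the 10666 tested genes. The median log2 change was 0.12 for the 50 genes and -0.02 for all tested genes. The median SE was 0.07 for the 50 genes and 0.11 for all tested genes, so a change of equal size passes more readily among the 50. With a minimum mean of 5 FPKM 12 of the 50 rose, against 8.03% higher over all genes tested there. The largest difference past the test was Cdc25c at 0.71 ± 0.21, and the other 10 ran from 0.19 to 0.43. Without irradiated replicate 1 the count of genes that rose was 7, without control replicate 1 it was 6 and without control replicate 2 it was 7. Without a variance trend in the fit it was 5. Over all tested genes the share higher in these fits was 5.1%, 4.28%, 3.88% and 4.5%, in that order. In 18 of the 50 genes all 3 irradiated values lay above all 3 control values, against 13.5% over all tested genes, and in 2, Mcm6 and Stmn1, they lay below, against 20.1%.

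**Figure D1:**
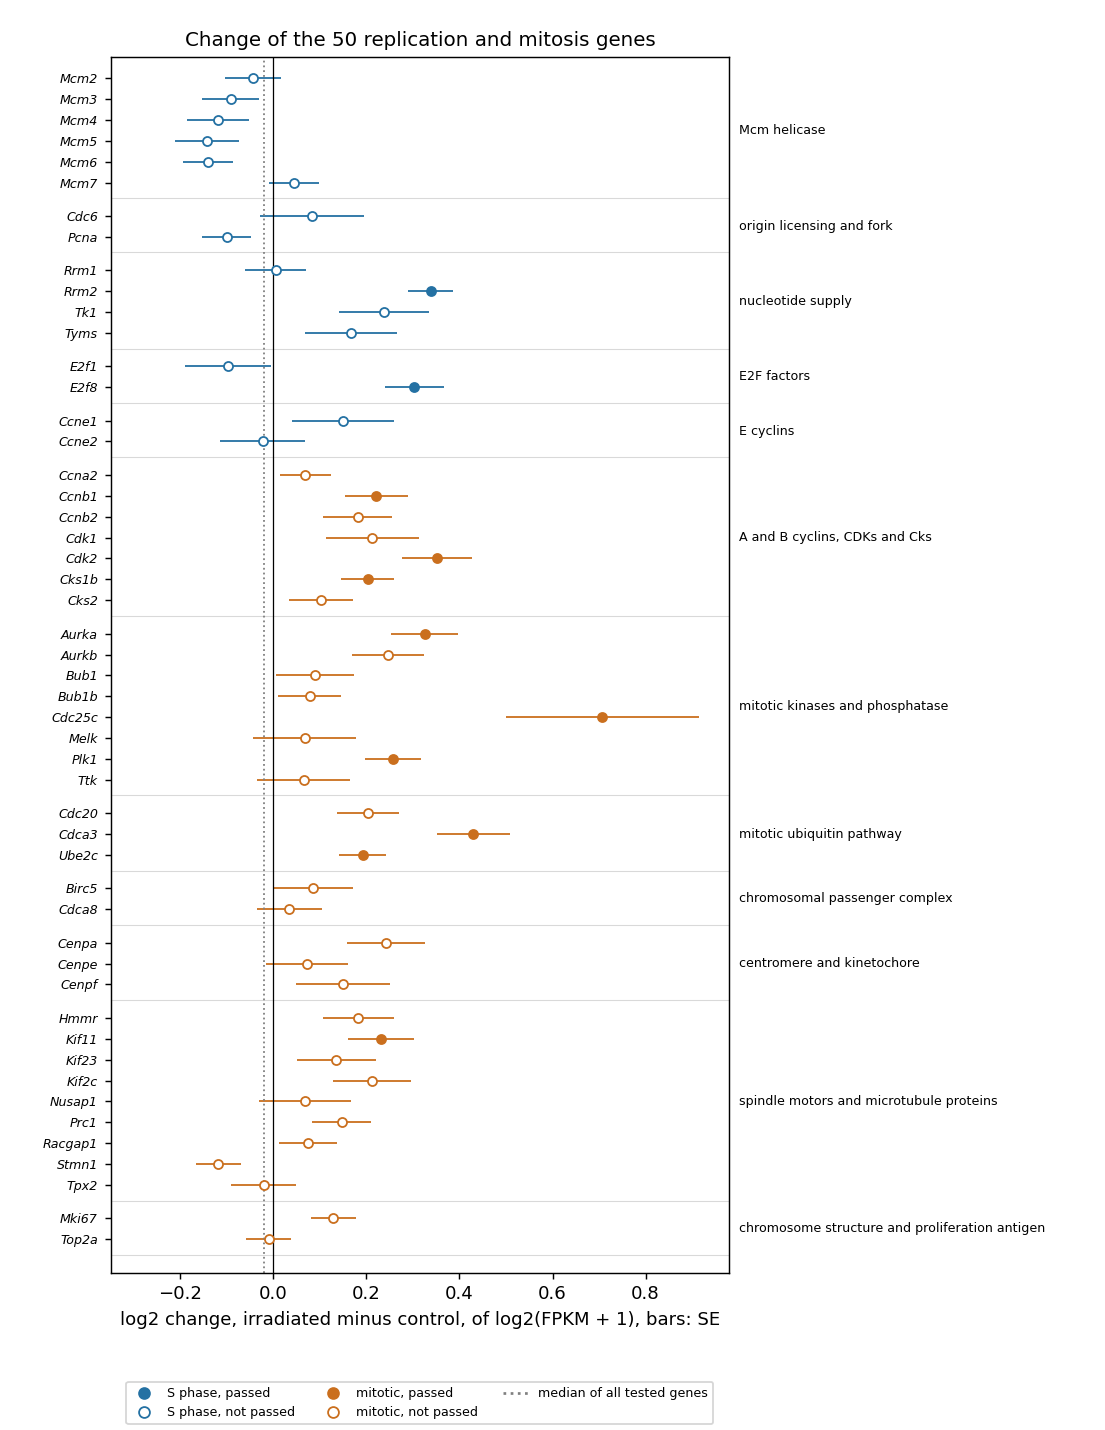
Log2 change (irradiated minus control, log2(FPKM + 1) scale) of each of the 50 genes with its standard error, grouped by role, with filled points for genes that passed the limma test at an adjusted p of 0.05. Cdc25c stands farthest to the right at 0.71, and 5 of the 6 Mcm genes lie left of 0.

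Of the 34 mitotic genes 9 rose (26.5%, against 6.29% higher over all tested genes) and 0 fell, with a median log2 change of 0.15 and 31 estimates above 0. Of the 16 S phase genes 2 rose (12.5%) and 0 fell, with a median of -0.01 and 8 estimates above 0. Over all tested genes 4816 of 10666 estimates were above 0. At an unadjusted limma p under 0.05, 1 gene of each class was lower, against 1864 of the 10666 tested genes. The mitotic count was 5 without irradiated replicate 1 (14.7%), 4 without control replicate 1 and 4 without control replicate 2 (11.8% each), and 3 without the trend (8.82%), while the S phase count was 3 without control replicate 2 (18.8%) and 2 in the other 3 of these fits. The order of the 2 shares was therefore turned without control replicate 1, without control replicate 2 and without the trend. Over all tested genes the share higher was 5.1% without irradiated replicate 1, 4.28% without control replicate 1, 3.88% without control replicate 2 and 4.5% without the trend. The mean of log2(FPKM + 1) over the mitotic genes was 5.581, 5.519 and 5.565 in the irradiated libraries and 5.392, 5.367 and 5.41 in the control libraries, so that the groups did not overlap. Over the S phase genes it was 5.527, 5.485 and 5.491 in the irradiated libraries and 5.435, 5.508 and 5.453 in the control libraries, and the groups overlapped. The S phase mean minus the mitotic mean was -0.054, -0.034 and -0.074 in irradiated libraries and 0.043, 0.142 and 0.042 in control libraries. The difference between the classes is given as a description and was not tested, because the genes were chosen with results of these data known. The S phase median turned to 0.02 with median-of-ratios scaling and with quantile normalization, under which the mitotic median was 0.18.

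**Figure D2:**
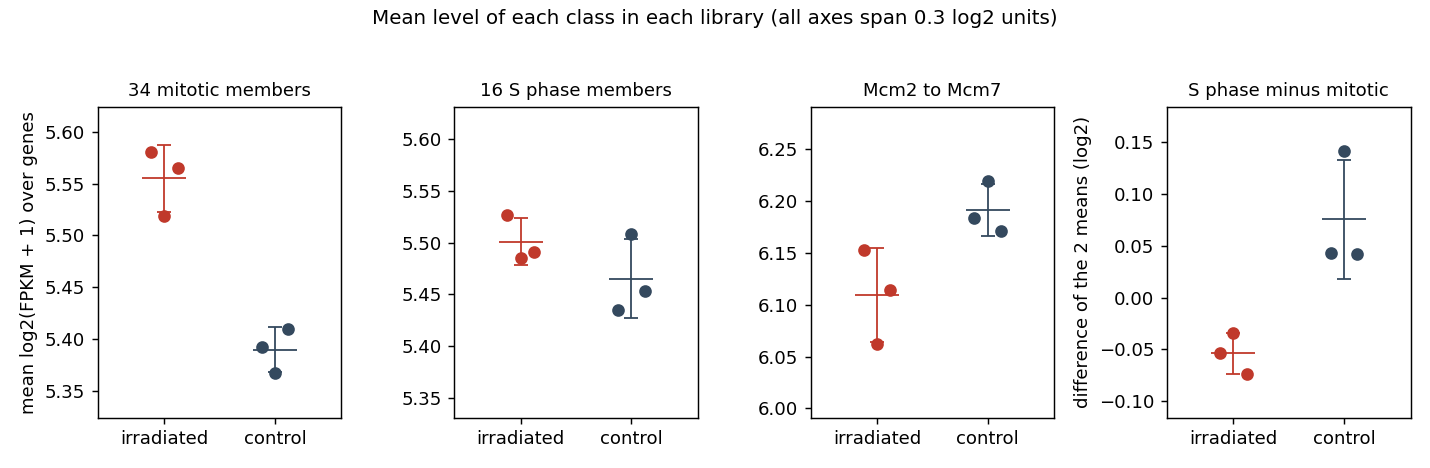
Mean log2(FPKM + 1) over the 34 mitotic genes, the 16 S phase genes and Mcm2 to Mcm7, and the S phase mean minus the mitotic mean, in each library, with irradiated libraries left of control libraries and bars for mean and SD. The mitotic means of the 3 irradiated libraries (5.519 to 5.581) lie above those of the 3 control libraries (5.367 to 5.41).

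Among S phase genes 0 of the 6 helicase subunits passed the test, against 6.29% higher and 10.3% lower over all tested genes. With so few genes this count does not set them apart. Mcm2, a subunit of the replicative helicase, had 60.3, 59.2 and 55.5 FPKM in irradiated and 57.7, 60.5 and 62.2 FPKM in control libraries (log2 change -0.04 ± 0.06), with overlapping ranges. Mcm5 had the lowest change of the 50 genes, with 93.2, 80.9 and 94.9 FPKM in irradiated and 101.5, 101.7 and 93.4 FPKM in control libraries (-0.14 ± 0.07, adjusted p = 0.198). Irradiated replicate 2 was the lowest, and irradiated replicate 3 lay above control replicate 3. Mcm6 had 68.3, 64.0 and 65.6 FPKM in irradiated and 72.0, 73.7 and 72.8 FPKM in control libraries without overlap, and did not pass either (-0.14 ± 0.05, limma adjusted p = 0.105). Of the 6 subunits 5 had estimates below 0 and Mcm7 one of 0.05 ± 0.05, and these signs were the same in the 6 fits without 1 library and in the 9 other settings tried. The mean of the 6 subunits on log2(FPKM + 1) was 6.153, 6.062 and 6.114 in irradiated and 6.184, 6.22 and 6.171 in control libraries. Pcna, the sliding clamp of DNA polymerases, had 181.0, 199.3 and 188.1 FPKM in irradiated and 213.1, 198.3 and 198.2 FPKM in control libraries (-0.10 ± 0.05, adjusted p = 0.239), and irradiated replicate 2 lay within the control range. Cdc6, which loads the helicase, and the E cyclin genes Ccne1 and Ccne2 had changes of 0.08, 0.15 and -0.02 and overlapped between groups.

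Of the 4 genes of nucleotide supply 1 rose (25.0%, against 6.29% higher over all tested genes), so the share rests on 1 gene. Rrm2, the small subunit of ribonucleotide reductase that is made in S phase, had 126.3, 122.1 and 127.9 FPKM in irradiated libraries and 96.9, 100.3 and 99.9 FPKM in control libraries. It rose by 0.34 ± 0.05 (1.27 times the control mean, limma adjusted p = 0.000695), the lowest p of the 50 genes. Rrm1, the large subunit of the same enzyme, had 75.5, 69.4 and 69.8 FPKM in irradiated and 75.7, 72.0 and 66.5 FPKM in control libraries, a change of 0.01 ± 0.06. Tk1, the thymidine kinase of dividing cells, had 54.9, 49.2 and 52.9 FPKM in irradiated and 42.3, 52.3 and 39.0 FPKM in control libraries. Its control replicate 2 reached the irradiated range, and the change of 0.24 ± 0.10 did not pass (adjusted p = 0.127), while it passed without control replicate 2 (adjusted p = 0.0156). Tyms, which makes thymidylate, had a change of 0.17 ± 0.10 and overlapped.

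Of the 2 E2F genes 1 rose, against 6.29% higher over all tested genes, so the count rests on 1 gene. E2f8, an atypical E2F that represses E2F targets late in S phase, had 51.2, 54.2 and 53.3 FPKM in irradiated and 40.4, 42.9 and 45.0 FPKM in control libraries, and rose by 0.30 ± 0.06 (adjusted p = 0.00773). E2f1, an activator of replication genes, had 17.2, 17.0 and 15.4 FPKM in irradiated and 16.0, 18.9 and 18.4 FPKM in control libraries, and its groups overlapped (-0.10 ± 0.09, adjusted p = 0.53).

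Of the 7 cyclin, kinase and Cks genes of the mitotic class 3 rose (42.9%, against 6.29% higher over all tested genes). Cdk2, the kinase that fires origins with E and A cyclins, had 54.3, 56.1 and 54.7 FPKM in irradiated and 40.9, 40.1 and 48.2 FPKM in control libraries (0.35 ± 0.08, adjusted p = 0.00824). Ccnb1, the cyclin that activates Cdk1 at entry into mitosis, had 44.9, 43.4 and 43.3 FPKM in irradiated and 34.8, 39.3 and 38.6 FPKM in control libraries (0.22 ± 0.07, adjusted p = 0.0474). The irradiated values of both lay above all control values, but Ccnb1 passed in 0 of the 6 fits that left out 1 library, whichever library it was (adjusted p 0.0593 to 0.177). Cks1b, a small CDK-binding protein, had 82.0, 83.8 and 90.4 FPKM in irradiated and 75.7, 73.3 and 73.1 FPKM in control libraries (0.20 ± 0.06, adjusted p = 0.0329), and of the 6 such fits it passed in 1, that without irradiated replicate 1. Cdk1, the mitotic kinase itself, had 24.4, 25.5 and 24.1 FPKM in irradiated and 24.2, 18.1 and 21.6 FPKM in control libraries. Control replicate 1 reached the irradiated range, and the change did not pass (0.21 ± 0.10, adjusted p = 0.179). Ccnb2 (0.18 ± 0.07) and Ccna2 (0.07 ± 0.06) had no overlap between groups and did not pass, and Cks2 had 0.10 ± 0.07.

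Of the 8 mitotic kinase and phosphatase genes 3 rose (37.5%, against 6.29% higher over all tested genes), and all 8 had estimates above 0. Aurka, the kinase that matures centrosomes and builds spindle poles, had 35.2, 32.5 and 35.2 FPKM in irradiated and 25.8, 27.2 and 28.6 FPKM in control libraries (0.33 ± 0.07, adjusted p = 0.00999). Plk1, the Polo kinase that acts from mitotic entry to cytokinesis, had 57.4, 55.3 and 52.8 FPKM in irradiated and 45.4, 45.7 and 47.0 FPKM in control libraries (0.26 ± 0.06, adjusted p = 0.0131). Both stood apart from the control values, and Plk1 lost its call, at adjusted p up to 0.0519, without irradiated replicate 1, control replicate 1 or control replicate 2. Cdc25c, the phosphatase that removes the inhibitory phosphates of Cdk1, had 11.2, 7.23 and 14.2 FPKM in irradiated and 7.74, 5.16 and 5.54 FPKM in control libraries. Irradiated replicate 2 lay below control replicate 1, so that this gene, with the highest change of the 50 (0.71 ± 0.21, adjusted p = 0.0393), was the one called gene whose groups overlapped. Its change was 0.51 without irradiated replicate 3 and 0.95 without irradiated replicate 2, and of the 6 fits without 1 library it passed in 2, those without irradiated replicate 2 or control replicate 1. It passed in 6 of the 9 other settings. Aurkb, the kinase of the chromosomal passenger complex, had 55.0, 55.8 and 63.3 FPKM in irradiated and 44.6, 50.7 and 51.2 FPKM in control libraries and was the nearest gene outside the threshold (0.25 ± 0.08, adjusted p = 0.0508). It passed in 0 of the 6 fits without 1 library and in 4 of the 9 other settings (adjusted p from 0.0286). Its partners Birc5 (0.09 ± 0.09) and Cdca8 (0.03 ± 0.07) overlapped between groups. The checkpoint kinases Ttk, Bub1 and Bub1b and the kinase Melk had changes of 0.07 to 0.09 and overlapped.

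Of the 3 genes of the ubiquitin pathway in mitosis 2 rose (66.7%, against 6.29% higher over all tested genes). Cdca3, an adaptor that targets the mitotic inhibitor Wee1 for destruction, had 49.1, 49.2 and 56.9 FPKM in irradiated and 37.0, 36.1 and 41.2 FPKM in control libraries (0.43 ± 0.08, adjusted p = 0.00322). Ube2c, the ubiquitin-conjugating enzyme of the APC/C, had 122.2, 127.7 and 122.1 FPKM in irradiated and 108.2, 111.3 and 105.7 FPKM in control libraries (0.19 ± 0.05, adjusted p = 0.0233), a call lost without irradiated replicate 2 or control replicate 1 (adjusted p up to 0.0851). Cdc20, the activator of the APC/C, had 72.8, 71.2 and 62.5 FPKM in irradiated and 59.2, 59.4 and 60.0 FPKM in control libraries. All 3 genes stood apart from the control values, and Cdc20 did not pass (0.20 ± 0.07, adjusted p = 0.0613). It passed without irradiated replicate 3 (adjusted p = 0.0184) and in 3 of the 9 other settings, namely with median-of-ratios scaling, quantile normalization and array weights.

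Among 9 spindle motor and microtubule genes 1 rose (11.1%, against 6.29% higher over all tested genes), so the share rests on 1 gene. Kif11, the motor that pushes spindle poles apart, had 53.6, 45.9 and 52.2 FPKM in irradiated and 43.5, 41.6 and 43.5 FPKM in control libraries (0.23 ± 0.07, adjusted p = 0.0477), and passed in 1 of the 6 fits without 1 library, that without irradiated replicate 2 (adjusted p up to 0.15 in the others). Kif2c, Hmmr and Prc1 stood apart from the control values at 0.21, 0.18 and 0.15 and did not pass. Stmn1, which destabilises microtubules and is abundant in immature cells, had 256.8, 250.9 and 243.3 FPKM in irradiated and 282.0, 274.7 and 258.6 FPKM in control libraries. All irradiated values lay below the control values without passing (-0.12 ± 0.05, adjusted p = 0.13). Stmn1 passed as lower without control replicate 3 (adjusted p = 0.0295) and with quantile normalization (adjusted p = 0.0435). Kif23, Racgap1, Nusap1 and Tpx2 had changes from -0.02 to 0.13 and overlapped. The centromere histone gene Cenpa (0.24 ± 0.08, adjusted p = 0.0739) passed without control replicate 3 (adjusted p = 0.00526) and in 2 of the 9 other settings, and the kinetochore genes Cenpe and Cenpf had 0.07 and 0.15.

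Rrm2, Cdca3, E2f8, Cdk2 and Aurka passed in all 6 fits that left out 1 library and in the 9 other settings, with adjusted p up to 0.0482. They are 2 of the 16 S phase genes (12.5%) and 3 of the 34 mitotic genes (8.82%), with Cdk2, which fires origins, among the latter. The larger mitotic share of the main fit therefore rests on calls that were lost in some fits. In the annotation, exons of 5 genes that rose overlap exons of a gene on the opposite strand, namely Ube2c with Tnnc2 over 22.8% of its exonic bases, Cdc25c with Gm3550 over 12.7%, E2f8 with Gm2788 over 11.2%, Plk1 with Gm44985 over 7.09% and Cdk2 with Pmel over 0.547%. The kit marks strand per the labels, but whether counting used it is not given in the sources used here. Tnnc2 averaged 0.33 FPKM in irradiated and 0.195 FPKM in control libraries.

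**Figure D3:**
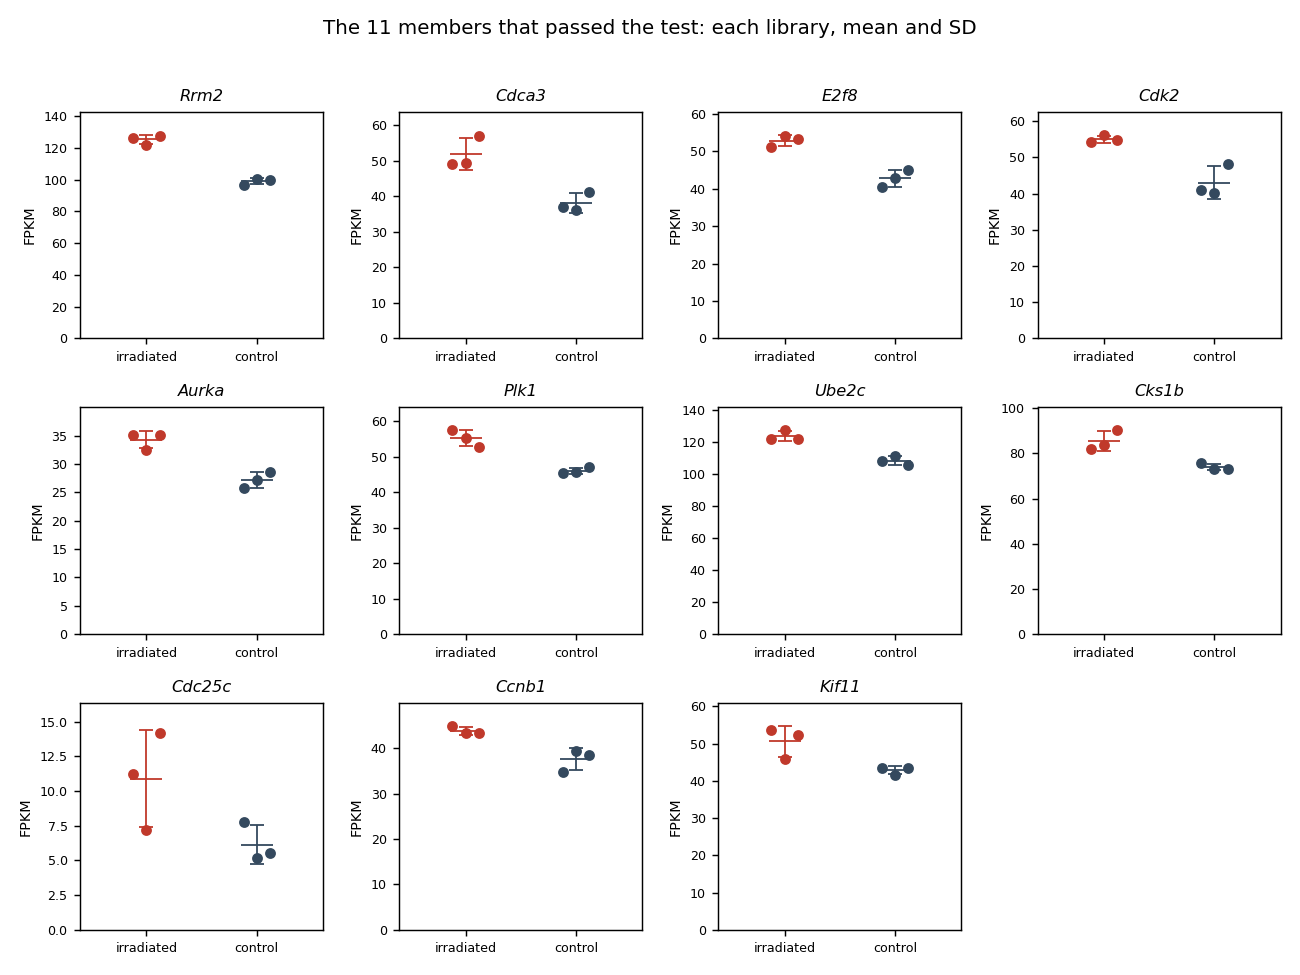
FPKM of the 11 genes that passed the test in each library, with irradiated libraries left of control libraries and bars for mean and SD (n = 3 each). In all panels but that of Cdc25c the 3 irradiated points lie above the 3 control points.

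Promoter sequence was compared between the classes as a description. The genes were chosen by symbol and not by motif. Such classes are known to be regulated through E2F and CHR, as said above, so the choice of genes may itself have set a difference in these motifs. RefSeq promoter windows on GRCm38.p6, from 250 bases before to 50 after the start, matched 43 of the 50 genes in 45 windows, and 12181 genes of the tables in 15417 windows. Searched on both strands were CHR (TTTGAA or TTCGAA), the CCAAT box (CCAAT) and E2F (TTTCGCGC, TTTGGCGC or TTTCCCGC), 3 motifs whose letters do not contain each other, although neighbouring matches may overlap. CHR was found in 76.7% of 30 mitotic windows and in 20.0% of 15 S phase windows, against 14.6% of the windows of all genes in the tables. E2F was found in 6.67% of mitotic and 33.3% of S phase windows, against 3.09%. CHR together with CCAAT was found in 73.3% of mitotic and 20.0% of S phase windows, against 6.01%. Among genes that rose, 7 of 10 windows held CHR and 1 of 10 held E2F, while among genes that did not pass 19 of 35 held CHR and 6 of 35 held E2F. Mitotic genes made up more of the windows that rose than of the others, so these shares do not separate a rise from the class. Mitotic windows without TTTGAA or TTCGAA occurred among genes that rose (Ccnb1 and Cdk2) and among those that did not pass (such as Birc5 and Cenpe). No other form of CHR was searched, so these windows are not shown to lack the element. A match is a description of letters and not a site of binding. Shown first are windows of 3 mitotic genes that rose, with CHR and CCAAT in capitals, because both motifs together were found in most windows of the class.
Aurka (chr2:172370521-172370820, minus strand): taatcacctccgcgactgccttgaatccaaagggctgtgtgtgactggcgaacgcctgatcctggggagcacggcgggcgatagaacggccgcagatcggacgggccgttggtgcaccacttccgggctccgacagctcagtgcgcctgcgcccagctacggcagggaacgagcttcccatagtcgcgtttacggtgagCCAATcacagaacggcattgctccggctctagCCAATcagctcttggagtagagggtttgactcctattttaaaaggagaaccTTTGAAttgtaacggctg
Plk1 (chr7:122159185-122159484, plus strand): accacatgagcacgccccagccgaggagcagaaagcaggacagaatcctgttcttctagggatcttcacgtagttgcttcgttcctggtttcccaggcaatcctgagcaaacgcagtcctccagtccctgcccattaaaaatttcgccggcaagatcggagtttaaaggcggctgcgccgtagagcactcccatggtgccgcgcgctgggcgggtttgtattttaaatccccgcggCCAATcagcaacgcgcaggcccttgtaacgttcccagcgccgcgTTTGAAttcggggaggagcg
Cdca3 (chr6:124829926-124830225, plus strand): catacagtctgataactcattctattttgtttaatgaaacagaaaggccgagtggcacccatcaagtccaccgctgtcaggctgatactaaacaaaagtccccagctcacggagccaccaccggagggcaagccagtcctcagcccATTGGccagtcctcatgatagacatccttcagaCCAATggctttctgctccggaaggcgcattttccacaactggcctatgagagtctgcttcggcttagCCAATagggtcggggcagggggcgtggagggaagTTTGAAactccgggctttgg
In these 3 windows TTTGAA starts 31 to 33 bases after the annotated start, downstream of at least 1 CCAAT. In the other 4 genes that rose and hold CHR (E2f8, Ube2c, Kif11 and Cks1b) it lies before the start. The windows of Ccnb1 and Cdk2 hold no match to the CHR forms searched. The next windows are of 2 helicase genes that did not pass, with E2F and CCAAT in capitals, where forward and reverse E2F matches overlap.
Mcm5 (chr8:75109259-75109558, plus strand): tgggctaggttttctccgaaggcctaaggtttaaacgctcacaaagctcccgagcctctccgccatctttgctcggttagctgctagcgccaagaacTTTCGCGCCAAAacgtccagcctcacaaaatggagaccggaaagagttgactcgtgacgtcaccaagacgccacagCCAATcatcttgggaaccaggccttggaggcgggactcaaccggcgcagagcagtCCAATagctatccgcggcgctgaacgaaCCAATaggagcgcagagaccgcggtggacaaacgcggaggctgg
Mcm6 (chr1:128359656-128359955, minus strand): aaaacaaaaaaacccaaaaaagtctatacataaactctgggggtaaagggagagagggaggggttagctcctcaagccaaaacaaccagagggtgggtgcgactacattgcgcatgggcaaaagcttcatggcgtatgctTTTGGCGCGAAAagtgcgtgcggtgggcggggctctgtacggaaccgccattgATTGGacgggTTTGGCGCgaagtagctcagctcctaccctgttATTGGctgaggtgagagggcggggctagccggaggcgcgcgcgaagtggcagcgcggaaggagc
The last window is that of Rrm2, the S phase gene with the lowest p, in which CCAAT alone was matched.
Rrm2 (chr12:24708004-24708303, plus strand): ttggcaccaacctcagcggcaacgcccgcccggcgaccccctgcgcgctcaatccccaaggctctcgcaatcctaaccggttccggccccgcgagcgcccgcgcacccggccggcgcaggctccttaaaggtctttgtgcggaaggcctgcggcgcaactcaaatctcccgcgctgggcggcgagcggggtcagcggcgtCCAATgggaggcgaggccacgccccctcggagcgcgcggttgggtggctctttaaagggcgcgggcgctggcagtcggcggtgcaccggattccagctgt

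**Figure D4:**
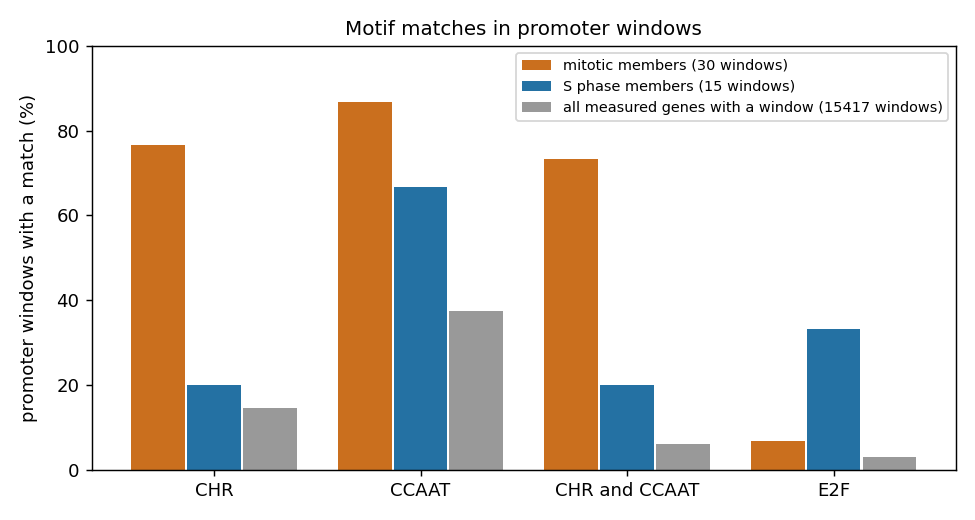
Percent of promoter windows with at least 1 match of each motif, for the mitotic genes (30 windows), the S phase genes (15 windows) and all measured genes with a window (15417 windows). CHR stands at 76.7% in mitotic windows, 20.0% in S phase windows and 14.6% overall.

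Other genes of the same machinery were taken from lists of its known components. Over all tested genes 6.29% were higher and 10.3% lower, as above, and 4816 of 10666 estimates were above 0. At an unadjusted limma p under 0.05, 1292 of the 10666 were higher and 1864 lower. Unadjusted counts of this and the later lists stand against these. Of 27 further mitotic kinesin and spindle genes 6 rose (22.2%) and 0 fell (median 0.18, with 26 estimates above 0 and 0 lower at an unadjusted p under 0.05). Among them were Spag5, a spindle protein, at 33.1 ± 1.05 FPKM in irradiated and 25.2 ± 2.08 FPKM in control libraries (0.38 ± 0.08), Dlgap5, which stabilises spindle microtubules (0.32 ± 0.07), and the motor gene Kif22 (0.28 ± 0.06). Of 29 kinetochore and checkpoint genes 3 rose (10.3%) and 0 fell (median 0.12, 0 lower at an unadjusted p under 0.05), namely Hjurp, the chaperone of Cenpa (0.28 ± 0.07), Cenpu (0.53 ± 0.14) and Cenph (0.38 ± 0.10). Of 21 condensin, cohesin and separation genes 2 rose (9.52%) and 0 fell (median -0.05, 2 lower at an unadjusted p under 0.05), the separase gene Espl1 (0.33 ± 0.08) and the condensin gene Ncapg (0.30 ± 0.08). Of 15 APC/C genes 0 rose and 0 fell by limma (median 0.00), with 2 higher and 1 lower at an unadjusted p under 0.05.

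On the replication side the counts were small, and with lists of this size they do not set these genes apart from all tested genes. Of 22 genes of origin licensing and firing 1 rose and 0 fell (median 0.12, 0 lower at an unadjusted p under 0.05), Dbf4, the activator of the Cdc7 kinase (0.28 ± 0.08). Of 25 polymerase, clamp loader and lagging strand genes 0 rose and 0 fell by limma (median -0.02), with 0 higher and 1 lower at an unadjusted p under 0.05. Of 14 deoxynucleotide synthesis genes 0 rose and 1 fell (median 0.00, 1 higher at an unadjusted p under 0.05), Dck, the deoxycytidine kinase of nucleotide salvage, at 33.3 ± 3.52 FPKM in irradiated and 42.3 ± 2.37 FPKM in control libraries (-0.34 ± 0.08). These shares stood at 4.55% higher for licensing and 0.0% for the polymerase list, against 6.29% over all tested genes. The share lower was 7.14% for deoxynucleotide synthesis, against 10.3% over all tested genes.

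Of 20 tested genes on a list of G1 cyclins, kinases, inhibitors and pocket proteins 5 rose (25.0%, against 6.29% over all tested genes). Of the same 20 genes 2 fell (median -0.01), a share near the 10.3% lower of all tested genes. The list also held genes that act later in the cycle, among them Wee1 and Pkmyt1, so it is not one of G1 alone. Cdkn2d, an inhibitor of Cdk4 and Cdk6, averaged 94.5 ± 2.68 FPKM in irradiated and 66.5 ± 4.74 FPKM in control libraries (0.50 ± 0.06, limma adjusted p = 0.000228). The D cyclin genes Ccnd2 and Ccnd1, which drive exit from G1, fell by 0.62 ± 0.08 and 0.93 ± 0.12 on the log2 scale, Ccnd1 averaging 3.22 ± 0.318 FPKM in irradiated and 7.06 ± 0.526 FPKM in control libraries. The other 4 that rose, named after their values were seen, were Cdkn3 (0.47 ± 0.08), Pkmyt1 (0.39 ± 0.12), Cdc25a (0.33 ± 0.07) and Ccnd3 (0.22 ± 0.05), of which Ccnd3, a further D cyclin, averaged 257.1 ± 8.67 FPKM in irradiated and 221.3 ± 4.29 FPKM in control libraries. Of 16 tested E2F, DREAM and MYB-MuvB factors 3 rose (18.8%) and 0 fell (median 0.01, 1 lower at an unadjusted p under 0.05), namely Tfdp1, the dimer partner of E2F factors (0.30 ± 0.05), the activator E2f2 (0.23 ± 0.06) and Mybl2, which encodes B-Myb (0.34 ± 0.10).

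Markers of several dividing and non-dividing marrow cells moved in the same libraries, and their part in the result was not tested. The counts below stand against 6.29% higher and 10.3% lower over all tested genes. Of 9 primary granule genes of neutrophil precursors 5 rose and 0 fell (median 0.27), with a summed level of 8162 to 8452 FPKM in irradiated and 6976 to 7792 FPKM in control libraries. Mpo and Elane, the defining genes of that stage, overlapped between groups, Mpo averaging 1857 ± 11.5 FPKM in irradiated and 1790 ± 138.5 FPKM in control libraries and Elane averaging 1553 ± 14.5 FPKM in irradiated and 1489 ± 101.7 FPKM in control libraries. Of 10 secondary granule genes 8 rose, among them Ltf (0.39 ± 0.04), and 0 fell (median 0.37, summed 28121 to 28503 FPKM in irradiated and 20933 to 22467 FPKM in control libraries). Ngp led this sum, averaging 11900 FPKM in irradiated and 9622 FPKM in control libraries. Of 13 genes of mature neutrophils 9 rose and 2 fell (summed 69716 to 72813 FPKM in irradiated and 45864 to 49090 FPKM in control libraries). Most of that sum was S100a8 (mean 39026 FPKM in irradiated and 25283 FPKM in control libraries) and S100a9 (29890 FPKM in irradiated and 20146 FPKM in control libraries). Plasma cell genes rose in 4 of 7 cases and fell in 0 (summed 551.8 to 579.3 FPKM in irradiated and 237.3 to 252.4 FPKM in control libraries). At an unadjusted p under 0.05, 0 genes of both granule lists and 1 plasma cell gene were lower.

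The other marrow lineages and the T cells moved the other way or both ways, against 6.29% higher and 10.3% lower over all tested genes. Of 15 T cell core genes 0 rose and 13 fell (summed 377.0 to 390.8 FPKM in irradiated and 593.3 to 618.2 FPKM in control libraries), and of 11 Treg genes 0 rose and 9 fell (121.7 to 136.5 FPKM in irradiated and 212.9 to 219.3 FPKM in control libraries). Of 10 B cell precursor genes 0 rose and 10 fell (42.1 to 48.6 FPKM in irradiated and 133.2 to 144.7 FPKM in control libraries). Of 15 erythroid genes 0 rose and 7 fell (714.9 to 749.0 FPKM in irradiated and 1053 to 1238 FPKM in control libraries), where Klf1, the erythroid factor, averaged 4.30 ± 2.05 FPKM in irradiated and 5.40 ± 1.20 FPKM in control libraries without passing. Of 11 monocyte and macrophage genes 0 rose and 10 fell (1548 to 1614 FPKM in irradiated and 2185 to 2340 FPKM in control libraries). Haematopoietic progenitor genes rose in 1 and fell in 3 of 7 cases (132.8 to 136.7 FPKM in irradiated and 110.3 to 119.7 FPKM in control libraries), with the receptor gene Kit at 16.7 ± 1.43 FPKM in irradiated and 16.8 ± 0.654 FPKM in control libraries. The gene that rose was Gata2, at 84.6 ± 2.13 FPKM in irradiated and 52.4 ± 3.62 FPKM in control libraries, and without it the progenitor sum was 46.5 to 51.5 FPKM in irradiated and 59.9 to 67.1 FPKM in control libraries. Eosinophil and basophil genes rose in 3 and fell in 5 of 9 (6658 to 6791 FPKM in irradiated and 7402 to 8136 FPKM in control libraries). In the lists with no rise, 0 genes were higher at an unadjusted p under 0.05, and 0 markers of any list were at 0 throughout a group.

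**Figure D5:**
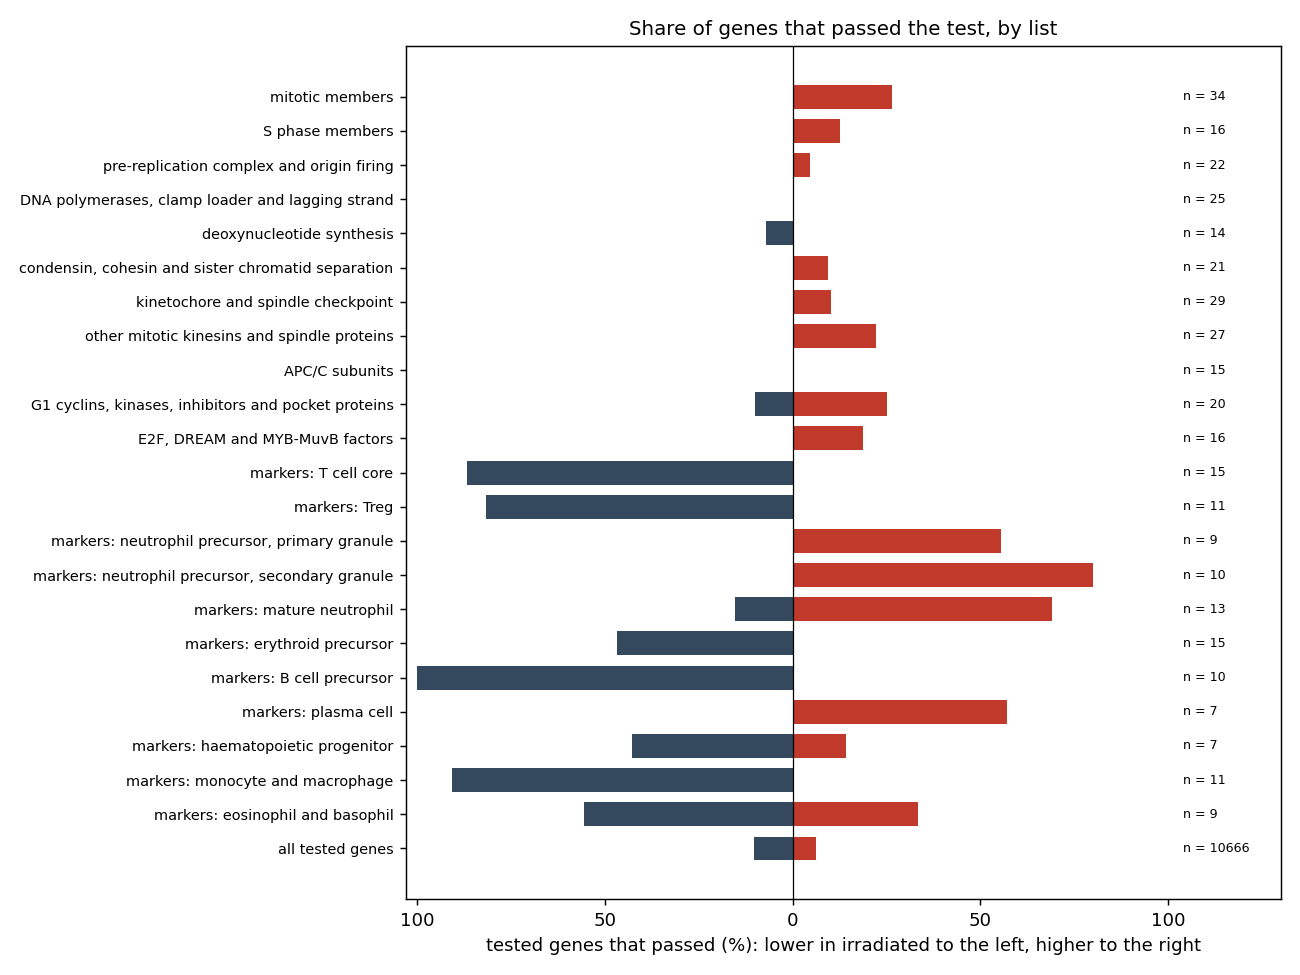
Percent of tested genes in each list that passed the limma test, higher in irradiated libraries to the right and lower to the left, with the number tested at the right edge. Mitotic genes reach 26.5% higher and 0.0% lower, S phase genes 12.5% higher, and all tested genes 6.29% higher and 10.3% lower.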

How the data were processed

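The submitters' processing notes name fastp, HISAT2 and StringTie and the builds GRCm38 and mm10, and the sources used here give no versions, settings or annotation release. The deposited tables hold 1 value for each gene in each library, which was taken as FPKM although the headers do not name the unit. How reads shared with processed copies of a gene were counted is not stated.

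A minimum mean of 1 FPKM was set for testing, a pseudocount of 1 FPKM was added before taking log2, and limma 3.58.1 (R 4.3.3) was fitted with group alone and a variance trend. Tests were two-sided and p-values were adjusted over all tested genes (Benjamini-Hochberg, threshold 0.05). Each change is the irradiated mean minus the control mean in log2 units, where the pseudocount shrinks those of low genes. The fit was tested on simulated data of 10666 genes for this comparison, with 3.37% of calls false. Recovered were 7.6% of genes changed by a log2 of 0.25, 46.8% of those changed by 0.5 and 88.4% of those changed by 1. The simulation changed 200 genes taken from all tested genes, whereas 671 were higher and 1100 lower in the data. The median SE was 0.11 for all tested genes and 0.07 for the members, so these rates do not hold for the members.

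The members, the 9 lists of other cell cycle genes and the 11 marker lists were chosen with earlier results of these data known. All members may be named, with the value of every library for those that passed, 6 others named by the rule, the extremes and the nearest outside the threshold. Up to 3 genes past the threshold with the lowest p are named per pathway list, and up to 2 of the most abundant and set defining genes per marker list. Named outside this rule are 4 genes of the list of G1 cyclins, kinases, inhibitors and pocket proteins. Pimreg was matched through its older symbol Fam64a. Promoter coordinates are from RefSeq GRCm38.p6 and exon overlaps from GENCODE M21. Tables and plots were made in Python 3.11.15 (pandas 2.3.3, numpy 2.4.6; matplotlib 3.10.9).

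The fit was repeated with a pseudocount of 0.1, without the filter, with a minimum mean of 5 FPKM, with genes detected in every library, after scaling by median ratios or quantiles, with array weights, without the variance trend, with the replicate number as a block, and without each library in turn.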

Additional observations from a re-analysis of the deposited data

How the results depend on the processing

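The count of members that rose was 11, and 8 to 14 under the other settings except without the variance trend, where it was 5, of which 3 were mitotic. The share higher over all tested genes ran from 3.26% without the filter to 8.03% with a minimum mean of 5 FPKM, and was 4.5% without the variance trend. Leaving out each library gave 6 to 8 members higher, 4 to 6 of them mitotic, 0 to 1 member lower and 2 to 3 S phase members higher. Over all tested genes, leaving out 1 library gave 414 to 684 higher and 722 to 978 lower. With quantile normalization 1 member, Stmn1, was lower. The S phase median was 0.023 with median-of-ratios scaling and 0.023 with quantile normalization, where the mitotic median was 0.181 and 0.176. The cause of these changes was not tested. The S phase minus mitotic median was -0.158, and -0.175 to -0.138 without 1 library.

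Of members near 0, some changed sign and passed in none of these fits. Top2a was 0.024 with median-of-ratios scaling and 0.003 with quantile normalization, Ccne2 was 0.008 and 0.009 there, Tpx2 was 0.012 with median-of-ratios scaling and Rrm1 was -0.009 with array weights. Without 1 library, the change ran from -0.035 to 0.009 for Top2a, -0.068 to 0.01 for Ccne2, -0.073 to 0.022 for Tpx2, -0.045 to 0.048 for Rrm1, -0.01 to 0.164 for Cdc6, -0.021 to 0.108 for Cdca8, -0.039 to 0.167 for Nusap1, -0.017 to 0.183 for Birc5, -0.012 to 0.121 for Ttk and -0.046 to 0.146 for Melk.

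With the replicate number as a block 9 members rose, 7 of them mitotic, against 558 higher and 948 lower over all genes. Deviations from the group mean correlated at -0.0423 to 0.0111 between same-numbered libraries and at -0.0276 to 0.0508 between differently numbered ones. With 3 libraries in each group this cannot show whether same-numbered libraries were handled together. The irradiated libraries were shallower and absolute depth is unknown.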
